A study of Rattus norvegicus with 30 samples.

Results

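The genes described here are the calcium pumps and sodium-calcium exchangers, which move calcium out of the cytosol, in rat hippocampus after kainate. Members were every probe set annotated to exactly 1 of 9 gene symbols: the endoplasmic reticulum pumps Atp2a2 and Atp2a3, the plasma membrane pumps Atp2b1, Atp2b2, Atp2b3 and Atp2b4, and the exchangers Slc8a1, Slc8a2 and Slc8a3. They are 9 of the 4736 genes named on the array, with 24 of its 8740 probe sets that are no array control. Of the 24, 22 were bright enough to be tested, among 6305 tested in all. Total RNA was measured on 30 Affymetrix arrays, whose values are signal intensities in array units. Per the labels, rats received kainate, a glutamate receptor agonist that provokes seizures, or phosphate-buffered saline (PBS). They were killed 1, 6, 24, 72 or 240 h afterwards. There are 10 groups of 3 arrays, and kainate was set against PBS of the same time throughout. The labels name the tissue, the agent and the time for every array, and strain, age, dose and whether a replicate is a separate animal are not given in the sources used here. P-values therefore measure the spread between these arrays, which may be technical.

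Calcium enters neurons through glutamate receptors and voltage-gated channels, and the cell must return it to a low resting level. SERCA pumps, made by the Atp2a genes, use ATP to load calcium into the endoplasmic reticulum. PMCA pumps, made by the Atp2b genes, use ATP to push calcium out through the plasma membrane with high affinity, and NCX exchangers, made by the Slc8a genes, trade calcium for sodium with high capacity, driven by the gradient that the sodium pump builds.

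The promoter windows of the 4 genes that had a passing probe set at 24 h are shown, since 3 of these genes carry the falls and 1 the rise described further on. They are RefSeq sequences on GRCr8, from 250 bases before to 50 after the annotated start. Whether transcription begins at that start was not checked. The window of Slc8a1, with a long run of T shortly before it, may not be a promoter. Of the 9 members 8 have an entry, and Atp2b3 does not. They lie at chr12:39733269-39733568 (plus strand) for Atp2a2, chr4:148763604-148763903 (minus) for Atp2b2, chr13:47758827-47759126 (minus) for Atp2b4 and chr6:19023309-19023608 (plus) for Slc8a1. Each reads 5′ to 3′, and capitals mark matches on either strand to GGGCGG, the GC box, or to GCGNGGGCG, the site of EGR factors.
Atp2a2: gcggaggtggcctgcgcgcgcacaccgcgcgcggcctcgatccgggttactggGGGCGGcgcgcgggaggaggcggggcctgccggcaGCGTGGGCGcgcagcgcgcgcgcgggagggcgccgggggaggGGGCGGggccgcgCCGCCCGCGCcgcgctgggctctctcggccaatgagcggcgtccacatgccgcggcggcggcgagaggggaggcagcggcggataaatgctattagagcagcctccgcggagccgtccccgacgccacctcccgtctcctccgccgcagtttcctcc
Atp2b2: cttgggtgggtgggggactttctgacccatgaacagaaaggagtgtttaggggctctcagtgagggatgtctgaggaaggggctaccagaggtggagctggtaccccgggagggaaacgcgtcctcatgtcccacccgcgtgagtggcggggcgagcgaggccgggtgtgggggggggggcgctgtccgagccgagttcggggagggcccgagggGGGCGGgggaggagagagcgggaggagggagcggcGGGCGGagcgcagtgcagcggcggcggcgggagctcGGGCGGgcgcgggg
Atp2b4: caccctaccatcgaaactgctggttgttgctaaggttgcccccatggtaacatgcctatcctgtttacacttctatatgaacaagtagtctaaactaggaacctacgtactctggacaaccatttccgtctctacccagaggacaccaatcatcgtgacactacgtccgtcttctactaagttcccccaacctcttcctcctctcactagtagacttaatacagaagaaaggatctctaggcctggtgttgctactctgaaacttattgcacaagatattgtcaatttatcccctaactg
Slc8a1: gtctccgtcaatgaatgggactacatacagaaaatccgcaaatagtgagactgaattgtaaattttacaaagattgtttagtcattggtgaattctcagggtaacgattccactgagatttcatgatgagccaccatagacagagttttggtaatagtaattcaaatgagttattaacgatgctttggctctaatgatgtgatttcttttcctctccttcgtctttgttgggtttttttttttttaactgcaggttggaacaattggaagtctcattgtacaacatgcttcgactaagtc
The first pair is rich in G and C, 79.0% for Atp2a2 and 72.3% for Atp2b2, while Atp2b4 had 44.7% and Slc8a1 36.3%, against a median of 51.67% over 33469 promoters of 300 bases. The GC box was found 3 times in Atp2a2, 1 of them overlapping an EGR match, and 3 times in Atp2b2, and it occurs in 33.1% of all promoters. The EGR match was found 2 times in Atp2a2 and occurs in 4.98% of all promoters. In these 4 windows there was no match to TGACGTCA, the cyclic AMP response element (1.83% of all promoters), to TGANTCA, the AP-1 site (7.33%), or to TATAAA, the TATA box (14.2%). A match is a description of these letters and not evidence of binding.

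The falls and the rise that passed the test all came at 24 h. There 6 of the 22 tested probe sets passed (27.3%), where 11.3% of all 6305 did (limma, Benjamini-Hochberg adjusted p under 0.05). Of these 5 were lower after kainate (22.7% of the members, 6.28% of all tested), from Atp2a2, Atp2b2 and Atp2b4. The other was higher (4.55% of the members, 5.03% of all tested) and belongs to Slc8a1. The kainate and PBS arrays did not overlap in 9 probe sets that were lower (40.9%, 15.5% of all tested) and in 1 that was higher (4.55%, 12.6% of all tested). The median log2 change of the 22 was −0.22, beside −0.05 for all tested probe sets. Probe sets of 1 gene are counted apart in these shares. With the probe sets of each gene averaged, an alternative chosen after the data were seen, 1 of the 9 genes passed at 24 h. Of all 4808 rows tested that way 11.1% passed (limma), so the share of the members was then near that of all.

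No member passed at 1, 6, 72 or 240 h with limma, where 1.09%, 3.95%, 0.0476% and 0.0476% of all tested probe sets did. At an unadjusted p under 0.05 there were 1, 3, 2 and 2 members at those times, where 9.67%, 14.7%, 6.33% and 12.2% of all tested passed, and 9 at 24 h (40.9%, with 26.5% of all tested). Arrays did not overlap in 1 higher and 0 lower members at 1 h (4.73% and 5.52% of all tested), 1 and 4 at 6 h (9.63% and 18%), 2 and 5 at 72 h (10.3% and 11.9%) and 3 and 2 at 240 h (9.6% and 4.93%). In the same order of times the members' median log2 change was −0.02, −0.13, −0.19 and −0.03, beside −0.04, −0.11, −0.03 and 0.03 for all tested.

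**Figure D1:**
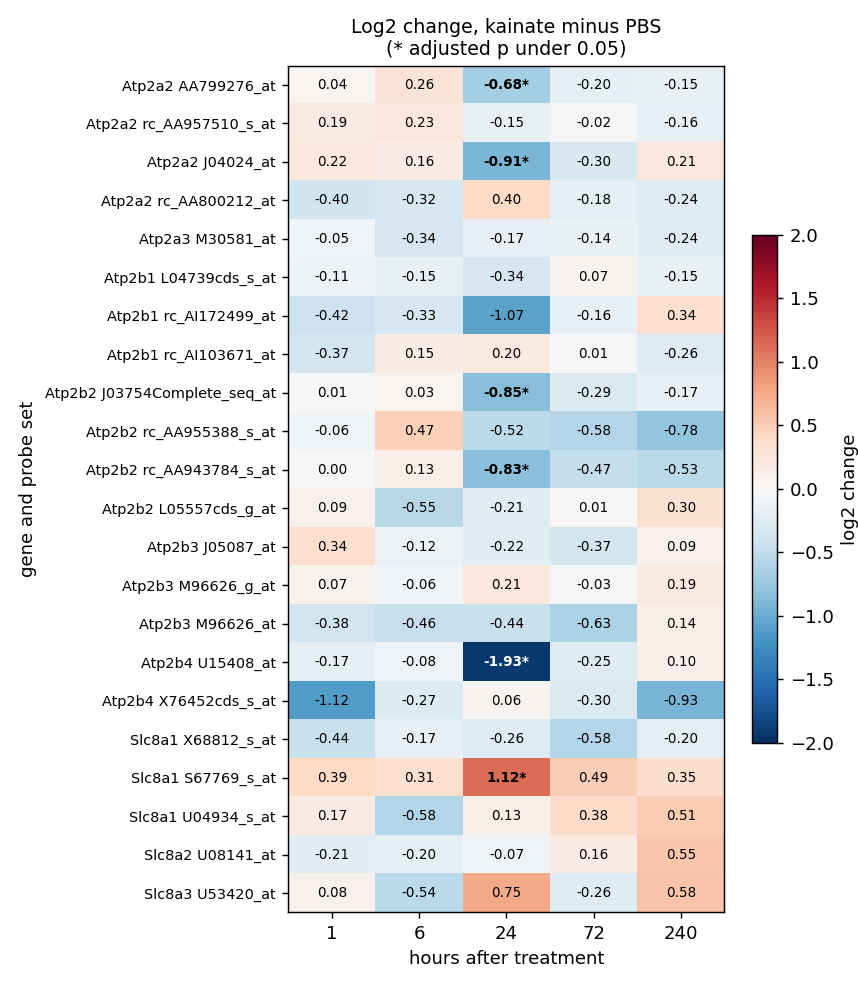
Log2 change, kainate minus PBS, of each of the 22 tested probe sets (rows, gene and probe set) at each of 5 times in hours (columns), n = 3 arrays per group, with colour running from blue (lower after kainate) to red (higher) and a star where the adjusted p was under 0.05. All 6 stars lie in the column of 24 h, 5 of them on lower values and 1 on the higher value of Slc8a1.

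Of the SERCA probe sets 2 of 5 fell at 24 h, both from Atp2a2, where 6.28% of all tested fell. The median log2 change of the 5 was −0.17. Atp2a2 encodes SERCA2, the pump that fills the endoplasmic reticulum store in most neurons. Its brightest probe set, AA799276_at, read 2529.6, 2503 and 2241 on the PBS arrays of 24 h and 1249, 1819 and 1531 on the kainate arrays. All 3 kainate arrays were below all 3 PBS arrays. The fall was 1.60-fold (log2 change −0.68 with an SE of 0.13 over 3 arrays a group, limma adjusted p = 0.000858).

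The other times frame this fall of Atp2a2. At 1 h AA799276_at read 2413, 2463 and 2388 after PBS and 2310.3, 2382 and 2776 after kainate. At 6 h it read 1989, 1507 and 1945 after PBS and 2179, 2081 and 2220.0 after kainate, so that here the kainate arrays were all above the PBS arrays. This difference of 0.26 did not pass (limma adjusted p = 0.335). At 72 h the values were 2316, 2132 and 1989.6 after PBS and 1712, 2168 and 1753 after kainate, and at 240 h 2173, 2322 and 2258 after PBS and 1813, 2066 and 2217 after kainate, with the groups overlapping at both times. In the order of the 10 group means the kainate group of 24 h was the lowest, 1533 ± 285.0 (SD, n = 3), but it was not separated beyond the SD from its neighbour, the PBS group of 6 h at 1814 ± 266 (SD, n = 3).

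The change in effect of Atp2a2 between times was tested directly. The kainate effect on AA799276_at differed among the 5 times (limma F test, adjusted p = 0.0108, where 6.63% of all tested probe sets passed), and it was the 1 member of 22 that did so. Its effect at 24 h was lower than that at 6 h by −0.94 ± 0.18 SE (limma adjusted p = 0.00136, with 5.27% of all tested passing this contrast), and this held in all 12 fits that leave out 1 array of 6 or 24 h. From 24 to 240 h its effect moved back by 0.52 ± 0.18 SE, which did not pass (limma adjusted p = 0.0833). No member passed the contrast of the effects at 72 and 24 h, where 0.745% of all tested did.

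The second Atp2a2 probe set that fell, J04024_at, was much dimmer. It read 62.9, 88.3 and 97.7 on the PBS arrays of 24 h and 36.1, 59.6 and 37.6 on the kainate arrays, again with no overlap, though the highest kainate value and the lowest PBS value were close. The fall was 1.88-fold (log2 change −0.91 with an SE of 0.24 over 3 arrays a group, limma adjusted p = 0.0140). This call was lost without PBS replicate 2 (limma adjusted p = 0.0519), PBS replicate 3 (0.0751), kainate replicate 1 (0.0649) or kainate replicate 3 (0.0763) of 24 h. Its effect rose by 1.12 ± 0.34 SE from 24 to 240 h (limma adjusted p = 0.0484, with 5.63% of all tested passing), when the kainate arrays read 85.5, 84.9 and 82.1. This contrast passed in 2 of the 12 fits that leave out 1 array of 24 or 240 h, those without PBS replicate 1 or kainate replicate 2 of 24 h, and its limma adjusted p in the other fits reached 0.123. It was also lost with quantile normalization (limma adjusted p = 0.0741), log2 of signal plus 16 (0.0522), no filter (0.0530) or array weights (0.0651).

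The remaining Atp2a2 probe sets did not pass at 24 h. The bright rc_AA957510_s_at read 1436, 1453 and 1565 after PBS and 1225, 1370.1 and 1431 after kainate, a log2 change of −0.15 (limma adjusted p = 0.381) with arrays that did not overlap. The dim rc_AA800212_at read 18.6, 42.9 and 44.2 after PBS and 40.7, 46.8 and 42.6 after kainate, a log2 change of 0.40 (limma adjusted p = 0.387). The probe sets of Atp2a2 thus gave unlike values for 1 gene. Over 30 arrays the correlation between pairs of them ran from −0.44 to 0.53. Atp2a3, which encodes SERCA3, had 1 probe set, M30581_at, at 63.7, 66.7 and 63.7 after PBS and 76.9, 31.8 and 78.4 after kainate at 24 h. Its log2 change lay between −0.34 and −0.05 over the 5 times and passed at none.

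Of the PMCA probe sets 3 of 12 fell at 24 h and 0 rose, where 6.28% of all tested fell and 5.03% rose. The median log2 change of the 12 was −0.39. Atp2b2 encodes PMCA2, a fast pump of neurons, and 2 of its 4 probe sets fell. J03754Complete_seq_at read 419.7, 365 and 302 on the PBS arrays of 24 h and 160.4, 265 and 186 on the kainate arrays, with no overlap. The fall was 1.80-fold (log2 change −0.85 with an SE of 0.17 over 3 arrays a group, limma adjusted p = 0.0016). Of the 3 kainate arrays, 2 were below all 24 arrays of the other times, whose lowest value was 263.

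At the other times the arrays of this Atp2b2 probe set, both treatments together, ran from 316 to 389 (1 h), from 263 to 407 (6 h), from 271 to 396 (72 h) and from 294 to 362 (240 h). The kainate arrays of 240 h, at 294, 301 and 296, were below the PBS arrays without overlap, at a log2 change of −0.17 that did not pass (limma adjusted p = 0.741). Its kainate group mean at 24 h, 204 ± 54.4 (SD, n = 3), was the lowest of the 10 group means and lay more than 1 SD below the next, 297 ± 3.36 (SD, n = 3) after kainate at 240 h. The effect at 24 h was lower than that at 6 h by −0.88 ± 0.24 SE (limma adjusted p = 0.0291). This contrast passed in 4 of the 12 fits that leave out 1 array of 6 or 24 h. It was lost without PBS replicate 2 or 3 or kainate replicate 1 or 2 of 6 h, and without PBS replicate 1 or 2 or kainate replicate 1 or 3 of 24 h, with a limma adjusted p between 0.0569 and 0.102.

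The second Atp2b2 probe set that fell, rc_AA943784_s_at, read 154, 158 and 123 after PBS at 24 h and 86.5, 90.6 and 67.5 after kainate. The arrays did not overlap, and the fall was 1.78-fold (log2 change −0.83 with an SE of 0.27 over 3 arrays a group, limma adjusted p = 0.0435). This call lies close to the threshold. It was lost without any 1 of the 6 arrays of 24 h, with limma adjusted p between 0.0507 (without kainate replicate 2) and 0.178 (without kainate replicate 3). It was also lost with quantile normalization (limma adjusted p = 0.0731).

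The 2 further Atp2b2 probe sets did not pass. For rc_AA955388_s_at the arrays of 24 h read 243, 239 and 185 after PBS and 137, 149 and 180.4 after kainate, lower without overlap, at a log2 change of −0.52 (limma adjusted p = 0.347). Its changes at 72 and 240 h, −0.58 and −0.78, were also lower without overlap and did not pass. L05557cds_g_at overlapped at 24 h, with a log2 change of −0.21, and read lower without overlap at 6 h (log2 change −0.55, limma adjusted p = 0.208). The average of the 4 Atp2b2 probe sets, an alternative chosen after the data were seen, was 1.52-fold lower at 24 h (log2 change −0.60 ± 0.18 SE, limma adjusted p = 0.0325). It was the 1 gene of the 9 whose average passed, near the share of 11.1% among all 4808 rows tested this way. These rows outnumber the 3702 tested genes, so not all of them are averages of a gene.

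Atp2b4 encodes PMCA4 and gave the steepest fall of the 22 probe sets. U15408_at read 64.0, 77.5 and 58.2 on the PBS arrays of 24 h and 19.8, 8.33 and 24.0 on the kainate arrays, of which 8.33 lies under the floor of 10.95 to which low signals were raised. The fall was 3.81-fold (log2 change −1.93 with an SE of 0.42 over 3 arrays a group, limma adjusted p = 0.00304). Low values were also seen at 1 h, at 15.99 on 1 PBS array and 17.2 on 1 kainate array, while the other arrays of 1 h read 47.3 to 64.3. At 6 and 72 h all arrays read between 57.1 and 98.8. By 240 h the kainate arrays read 70.7, 81.8 and 35.5 and the PBS arrays 54.9, 60.8 and 50.1. The effect thus rose by 2.03 ± 0.59 SE from 24 to 240 h (limma adjusted p = 0.0377). That contrast passed in 3 of the 12 fits without 1 array, those without kainate replicate 1 or 3 of 24 h or kainate replicate 3 of 240 h, and the limma adjusted p of the others reached 0.0928. It was also lost with no filter (limma adjusted p = 0.0700), no intensity trend (0.0518) or array weights (0.0651).

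The other Atp2b4 probe set, X76452cds_s_at, did not show that fall. It was dim, at 17.4, 51.2 and 7.84 after PBS and 23.8, 33.0 and 14.0 after kainate, a log2 change of 0.06 (limma adjusted p = 0.961). The difference between the changes of the pair, −1.99, had an exact two-sided permutation p of 0.2, where 3 arrays against 3 cannot go below 0.1. The average of the pair was lower by −0.94 and did not pass (limma adjusted p = 0.0947). Among the 22 pairs of probe sets of 1 gene, no difference in change at 24 h could pass, since the smallest exact permutation p of 0.1 becomes 0.22 once adjusted over the 22.

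Atp2b1, which encodes the widespread pump PMCA1, had 3 probe sets and no call. L04739cds_s_at read 479, 518 and 487 after PBS at 24 h and 368, 395 and 409.8 after kainate. The arrays did not overlap, and the log2 change of −0.34 ± 0.14 SE did not pass (limma adjusted p = 0.109). The dimmer rc_AI172499_at read 46.5, 60.9 and 39.0 after PBS and 28.1, 18.8 and 22.7 after kainate, also without overlap, at a log2 change of −1.07 ± 0.39 SE (limma adjusted p = 0.0744). The dimmest, rc_AI103671_at, had a log2 change of 0.20. Atp2b3, which encodes the neuronal pump PMCA3, had log2 changes at 24 h of −0.22, 0.21 and −0.44 in its 3 probe sets, with overlapping arrays in each. At 72 h its M96626_at read 51.7, 72.5 and 54.0 after PBS and 36.7, 39.9 and 37.4 after kainate, lower without overlap, and did not pass (log2 change −0.63, limma adjusted p = 0.739).

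**Figure D2:**
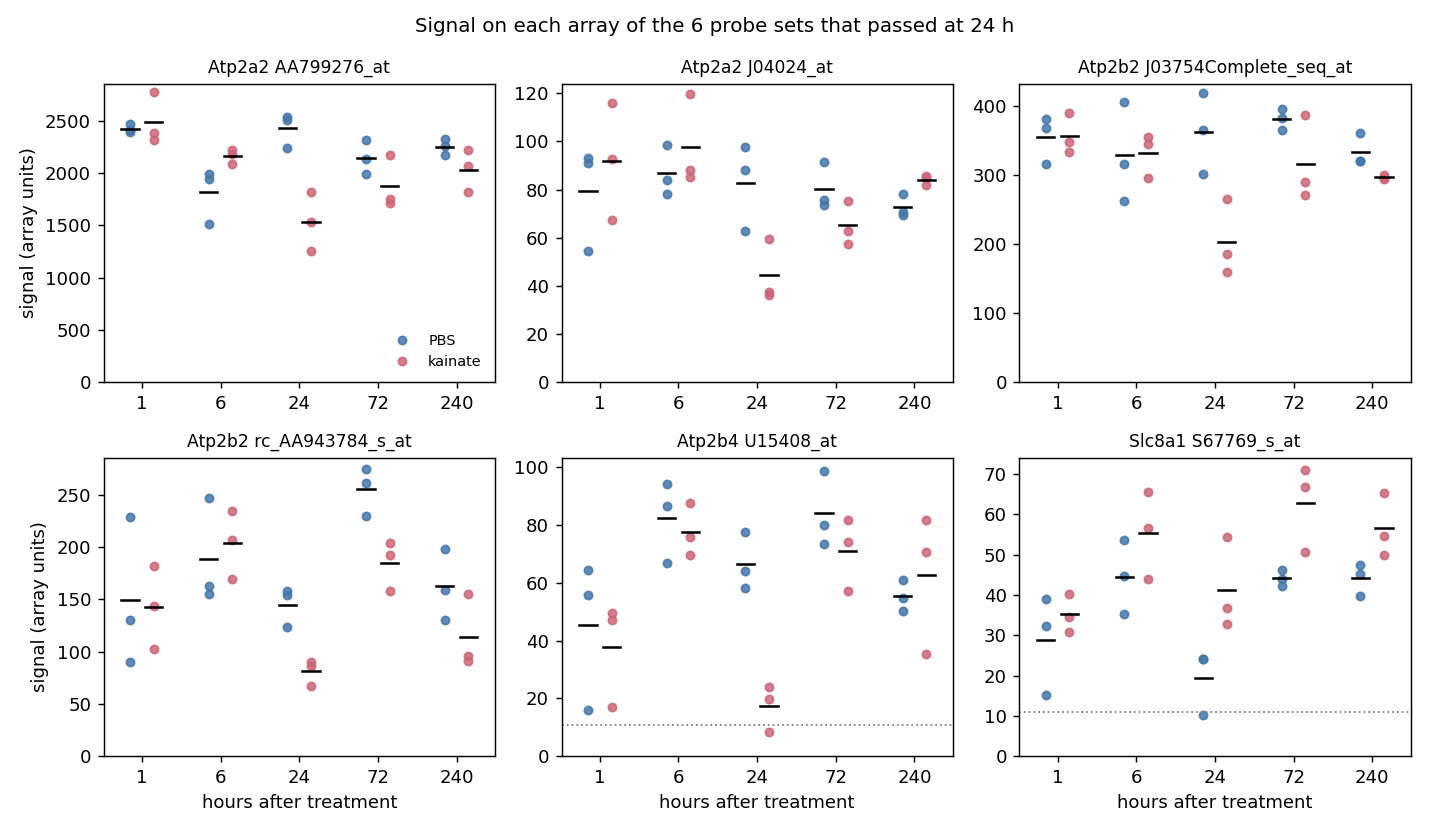
Signal in array units (vertical axis, from 0) on each of the 30 arrays, by hours after treatment (horizontal axis), for the 6 probe sets that passed at 24 h, with blue points for PBS, red for kainate and a black bar for each mean of 3 arrays. The dotted line in the panels of Atp2b4 and Slc8a1 is the floor of 10.95, and at 24 h the kainate points lie below all PBS points in 5 panels and above them for Slc8a1.

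Of 5 tested NCX probe sets 1 rose at 24 h and 0 fell, where 5.03% of all tested rose and 6.28% fell. The median log2 change of the 5 was 0.13. Slc8a1 encodes NCX1, the exchanger found in heart and brain. Its S67769_s_at read 10.1, 24.2 and 24.0 on the PBS arrays of 24 h, the first under the floor, and 36.7, 32.8 and 54.2 on the kainate arrays. The rise was 2.17-fold (log2 change 1.12 with an SE of 0.32 over 3 arrays a group, limma adjusted p = 0.0234). It was lost without PBS replicate 1 of 24 h, the array at 10.1 (log2 change 0.74, limma adjusted p = 0.152), and without kainate replicate 3 (0.90, limma adjusted p = 0.140).

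For this Slc8a1 probe set the PBS group of 24 h was the lowest of the 10 group means, 19.5 ± 8.07 (SD, n = 3), and the kainate group of 24 h, 41.2 ± 11.4 (SD, n = 3), ranked seventh. Of the 3 kainate arrays of 24 h, 2 lay within the span of the 12 PBS arrays of other times, 15.2 to 53.6. PBS levels of this probe set differed among times (limma F test, adjusted p = 0.0129, where 16.7% of all tested probe sets passed), a call that was lost without PBS replicate 1 of 24 h (adjusted p = 0.0632). Kainate means were above PBS means at each time, with log2 changes of 0.39, 0.31, 1.12, 0.49 and 0.35. The mean effect over the 5 times was 0.53 ± 0.14 SE (limma adjusted p = 0.0286, where 4.41% of all tested probe sets passed), and it was the 1 member of 22 to pass this contrast. That call was lost without kainate replicate 1 of 1 h (limma adjusted p = 0.0502), kainate replicate 2 of 6 h (0.0526) or kainate replicate 1 of 72 h (0.0515).

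The brightest Slc8a1 probe set gave no such rise. X68812_s_at read 435, 299.8 and 234 after PBS at 24 h and 307, 283 and 206 after kainate, a log2 change of −0.26 (limma adjusted p = 0.591). Its kainate mean was below the PBS mean at all 5 times, without overlap at 72 h, where it read 427, 526 and 429.9 after PBS and 315, 341 and 267 after kainate (log2 change −0.58, limma adjusted p = 0.776). U04934_s_at had a log2 change of 0.13 at 24 h. The average of the 3 tested probe sets was 0.33 and did not pass (limma adjusted p = 0.422). U04937_s_at ran from 9.68 to 34.9 and X68191_at from 1.24 to 34.3 over the 30 arrays, and neither was tested, because a probe set had to exceed a signal of 35.2 on 3 arrays.

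Slc8a2 encodes NCX2, an exchanger of neurons. Its U08141_at read 106, 91.1 and 129 after PBS at 24 h and 128, 96.5 and 86.8 after kainate, a log2 change of −0.07 (limma adjusted p = 0.879). Its PBS level differed between times. PBS arrays read 153 to 192 at 6 h and 168 to 184 at 72 h, above the 75.6 to 149 of the PBS arrays at 1, 24 and 240 h (limma F test for PBS levels, adjusted p = 0.0187). The PBS mean of 6 and 72 h together was above that of 1, 24 and 240 h in 21 of the 24 member probe sets (87.5%), and in 57% of all tested probe sets, so this direction was not particular to Slc8a2. The 24 include the 2 untested Slc8a1 probe sets, both higher at 6 and 72 h, while the 57% covers tested ones only. Among the members these PBS means were 83.3 and 55.8 for Atp2b4 U15408_at, 437 and 315 for Slc8a1 X68812_s_at and 62.5 and 38.7 for Slc8a3. At 240 h the kainate arrays read 185, 127 and 189 against 75.6, 126 and 149 (log2 change 0.55, limma adjusted p = 0.303). Slc8a3 encodes NCX3, and its U53420_at read 3.68, 48.2 and 38.8 after PBS at 24 h and 53.5, 40.1 and 45.7 after kainate. The log2 change of 0.75 ± 0.36 SE did not pass (limma adjusted p = 0.184), and 1 PBS array lay under the floor.

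**Figure D3:**
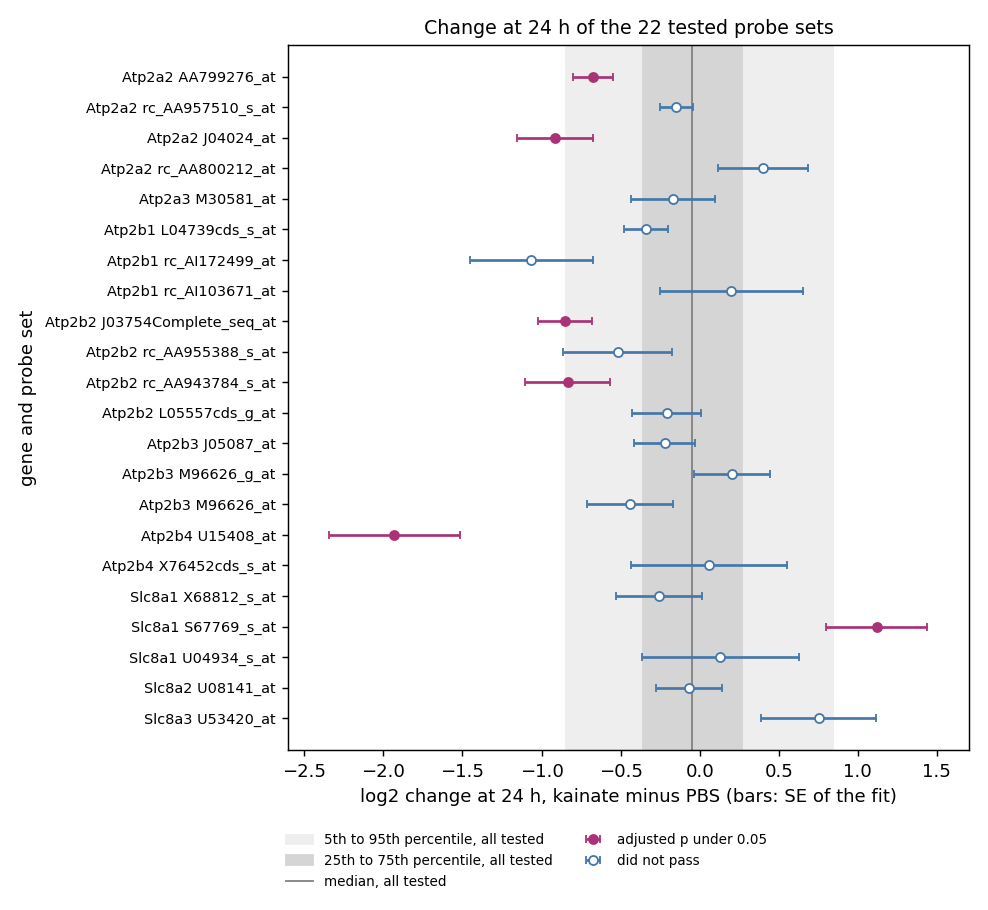
Log2 change at 24 h, kainate minus PBS (horizontal axis), of the 22 tested probe sets (vertical axis) with the SE of the fit as bars, n = 3 arrays per group, filled where the adjusted p was under 0.05. Grey bands show the 5th to 95th and 25th to 75th percentiles of all 6305 tested probe sets and the line their median of −0.05, and Atp2b4 U15408_at at −1.93 and Slc8a1 S67769_s_at at 1.12 lie farthest to either side.

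A kainate effect at any time was called for 3 of 22 probe sets (limma F test, where 9.33% of all tested passed). These were Atp2a2 AA799276_at (adjusted p = 0.00526), Atp2b2 J03754Complete_seq_at (0.0181) and Atp2b4 U15408_at (0.0476). The last is close to the threshold and was lost in 22 of the 30 fits that leave out 1 array, with an adjusted p of 0.178 without kainate replicate 2 of 24 h, the array at 8.33. It was also lost with no filter (adjusted p = 0.103) and with no intensity trend (0.0696). The call of Atp2b2 was lost without PBS replicate 1 or 2 or kainate replicate 1 or 3 of 24 h, with an adjusted p of up to 0.0921.

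The pattern over arrays was compared by Pearson's r of log2 values after the mean of the 6 arrays of each time was subtracted. It is a description over 30 arrays that share their hybridisations and the kainate contrast. Atp2a2 AA799276_at was most like Chn1, which encodes the Rac regulator chimaerin (r = 0.858), then Atp2b2 J03754Complete_seq_at (0.849) and Ldhb, a lactate dehydrogenase subunit (0.849). The Atp2b2 probe set was most like Nefh, the neurofilament heavy chain (0.852), then Atp2a2 (0.849) and Dync1li2, a dynein light intermediate chain (0.848). Atp2b4 U15408_at was most like Ap2b1, a clathrin adaptor subunit (0.799), then Fasn, the fatty acid synthase (0.797) and the kinase gene Matk (0.783). Between Atp2b4 and the other pair r was lower, 0.49 with Atp2a2 and 0.44 with Atp2b2.

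Genes that work with the pumps were read from 3 lists. Of all tested probe sets 6.28% fell and 5.03% rose at 24 h. Of the calcium release channels and store proteins, 10 of 14 listed genes were on the array with 20 tested probe sets. Among these 1 fell and 1 rose at 24 h, near the shares of all tested, at a median log2 change of −0.19. Itpr1, the receptor that releases calcium from the store that SERCA fills, went from 296 ± 31.8 to 147 ± 28.7 (SD, n = 3), a fall of 2.04-fold (J05510_at, limma adjusted p = 0.000245). Pdia3, a folding enzyme of the endoplasmic reticulum, went from 474 ± 72.4 to 641 ± 41.8 (SD, n = 3), a rise of 1.36-fold (X12355_s_at, limma adjusted p = 0.0339). The dimmer Pdia3 probe set rc_AA892637_at went the other way, from 54.4 to 45.1 without overlap, and did not pass (log2 change −0.26, limma adjusted p = 0.426). Itpr1 J05510_at passed in all 6 fits that leave out 1 array of 24 h. Pdia3 X12355_s_at passed in 2, being lost without PBS replicate 1 or 3 or kainate replicate 2 or 3 (limma adjusted p up to 0.151).

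Of the sodium pump subunits and partners, 6 of 12 genes were on the array. Here 1 of 9 tested probe sets fell and 0 rose at 24 h (6.28% and 5.03% of all tested), with a median of −0.31. Atp1b1, the beta subunit that brings the sodium pump to the membrane, fell 1.32-fold, from 5597 ± 143 to 4296 ± 772 (SD, n = 3, rc_AI112173_at, limma adjusted p = 0.0285). Its rc_AI230614_s_at was lower without overlap (log2 change −0.56) and X63375exon_at was nearly level (−0.04). Neither passed (limma adjusted p = 0.210 and 0.908). Of the other calcium transporters and pump regulators, 6 of 18 genes were on the array. In this list 2 of 6 tested probe sets fell and 0 rose (6.28% and 5.03% of all tested), with a median of −0.30. Slc24a2, a potassium-dependent sodium-calcium exchanger of neurons, fell 2.39-fold, from 236 ± 46.5 to 104 ± 42.1 (SD, n = 3, AF021923_at, limma adjusted p = 0.00745). Its AF027506_s_at, with means of 7.25 and 7.47 under the floor, did not pass (log2 change 0.05, limma adjusted p = 0.970). Atp2c1, the calcium and manganese pump of the Golgi, fell 1.63-fold with overlapping arrays (M93017_at, limma adjusted p = 0.0475). Without 1 array of 24 h the call of Slc24a2 was lost in 1 fit of 6, that without kainate replicate 3 (limma adjusted p = 0.0900). Atp1b1 passed in 1 of 6, that without kainate replicate 2, and Atp2c1 in 2, those without PBS replicate 3 or kainate replicate 2, and their limma adjusted p reached 0.210 and 0.198. No probe set of the 3 lists passed at 1, 6, 72 or 240 h.

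These are bulk samples, so fewer cells of a type and less RNA per cell cannot be told apart. Markers of several cell types passed at 24 h, when 6.28% of all tested probe sets fell and 5.03% rose. Of the neuron markers 4 of 20 tested probe sets fell and 0 rose (Nefl, Nefh and both of Nrgn), their median log2 change was −0.31, and their summed signal ran from 17902 to 18417 on PBS arrays and from 14520 to 16100 on kainate arrays. The other Nefh probe set, X13804cds_at, was higher without overlap (log2 change 0.29), as was Syp X06655_at (0.09), and neither passed. The other Nefl probe set, M25638_s_at, had a log2 change of −0.13 and did not pass. Of the microglia and macrophage markers 2 of 9 rose and 0 fell, both of C1qb, at a median of 0.30, and the sums ran from 694 to 708 and from 1116 to 1339. The C1qb probe sets, which went from 125 to 426 and from 88.2 to 281, hold most of the rise in the sum. Of the rest, which did not pass, Ptprc, Cx3cr1 and 1 Cd14 probe set had negative log2 changes. C1qc, both Aif1 probe sets and the other Cd14 probe set had positive ones. Of the astrocyte markers 4 of 17 fell and 0 rose, with sums of 13277 to 13421 and 11891 to 12601, but their median log2 change was 0.08, above that of all tested probe sets. Of the 12 oligodendrocyte probe sets none passed, at a median of −0.23, with sums of 9677 to 10060 and 7755 to 8691. Endothelial markers summed to 425 to 439 and 269 to 341, with 1 of 6 lower, Slco1a4, which went from 251 to 123 and holds most of the drop in the sum, while the median of the 6 was 0.06. Choroid plexus markers summed to 1452 to 5723 and 4069 to 9650.1, with 0 of 6 passing and a median of −0.13. At times when no pump or exchanger passed, both C1qb probe sets were higher at 6 h (2.29-fold and 1.84-fold, limma adjusted p = 0.00246 and 0.00812) and Map2 X17682_s_at was lower at 1 h (2.21-fold, limma adjusted p = 0.0308). These were 2 of 9 and 1 of 20 tested probe sets of their lists, where 3.95% and 1.09% of all tested passed. At 6 h the microglia and macrophage median was −0.11, beside −0.11 for all tested, with sums of 739 to 775 (PBS) and 849 to 998 (kainate). C1qb, from 86.3 to 198 and from 81.7 to 148, again holds most of that rise. At 1 h the neuron median was −0.11, beside −0.04 for all tested. Its sums overlapped, 18101 to 18437 (PBS) and 18287 to 19141 (kainate). No tested marker was at the floor on all 6 arrays of 24 h. The part of these shifts in the changes of the pumps and exchangers was not tested.

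**Figure D4:**
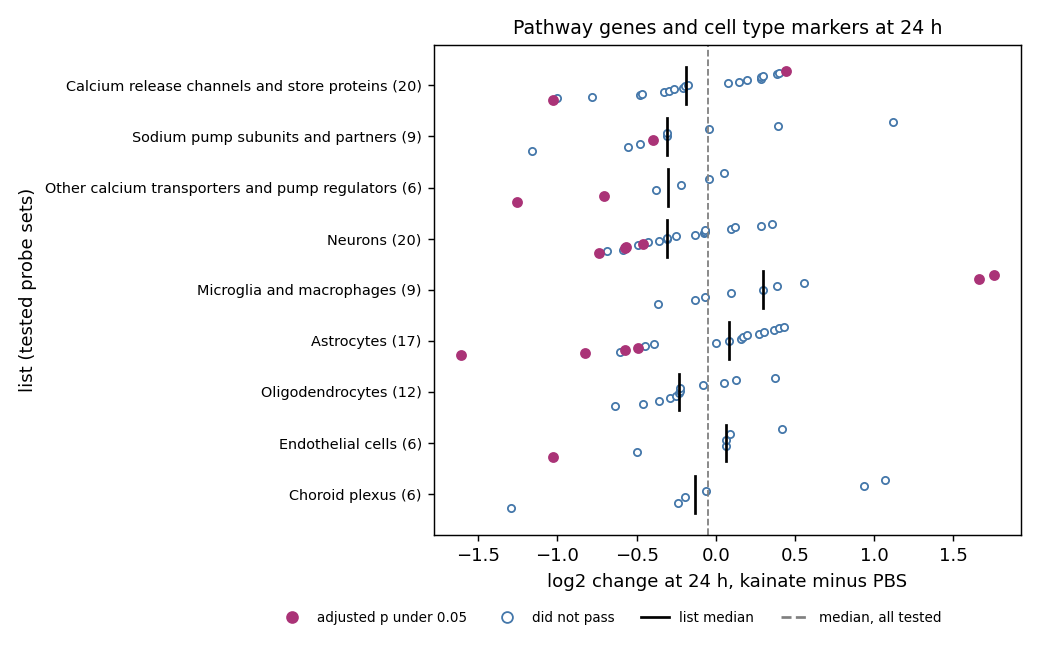
Log2 change at 24 h, kainate minus PBS (horizontal axis), of every tested probe set of the 3 lists of partner genes and the 6 lists of cell type markers (vertical axis, number of probe sets in brackets), filled where the adjusted p was under 0.05. The short black bar is each list's median and the dashed line the median of all tested probe sets, −0.05, and the list of neurons has its median at −0.31 and that of microglia and macrophages at 0.30.

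Across probe sets the median r between arrays of 1 group was 0.947, and among all pairs of arrays r was 0.885 at its lowest. At 24 h the 3 prime to 5 prime log2 ratio of actin, a sign of RNA quality, was 0.69 ± 0.08 after PBS and 0.79 ± 0.14 after kainate (SD, n = 3, exact two-sided permutation p = 0.4). The ratio of Gapdh differed by 0.14 (exact permutation p = 0.6) and that of hexokinase by −0.26 (exact permutation p = 0.9). Their part in the results was not tested.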

How the data were processed

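Values are the signal intensity of each probe set as deposited, not in logs, and the sources used here do not say how the authors computed it from the scans. Gene names came from the platform annotation. Each array was scaled to a common mean, trimmed by 2% at each end, signals were raised to a floor at the 20th percentile (10.95, log2 3.45), and log2 was taken. Probe sets above the 40th percentile (35.2) on at least 3 of 30 arrays were tested. limma 3.58.1 in R 4.3.3 fitted a mean per group over all 30 arrays with an intensity trend (20 residual and 7.27 prior degrees of freedom), with Benjamini-Hochberg adjustment over 6305 probe sets at a threshold of 0.05, and was tested on simulated data. The floor can understate fold changes of probe sets near it. Single low arrays can also enlarge them, as PBS replicate 1 of 24 h did for Slc8a1 S67769_s_at.

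All 9 members are named with all their probe sets, and from each partner list the 2 passing genes with the largest change per time. Likeness names 3 genes for each member with an effect at any time. The members and lists were chosen with earlier results of these data known. Promoters came from RefSeq. Alternatives were quantile normalization, a floor at the 5th percentile, log2 of signal plus 16, no filter or a filter on 15 arrays, no intensity trend, array weights, a replicate block, fits of fewer times, leaving out each array, and, chosen after the data were seen, the average of a gene's probe sets. The contrasts of effects between times were also added after the data were seen. Promoters were read with Python 3.11.15 and pandas 2.3.3, and plots drawn with matplotlib 3.10.9.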

Additional observations from a re-analysis of the deposited data

Results flagged for a closer look

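The kainate effect on Atp2a2 AA799276_at differed among the 5 times (limma F test, adjusted p = 0.0108). From the earliest time to the latest its log2 changes were 0.04, 0.26, −0.68, −0.20 and −0.15, with 3 arrays in each group. The call was kept in all 30 fits that leave out 1 array, and it was lost when the 4 probe sets of Atp2a2 were averaged (adjusted p = 0.419).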

How the results depend on the processing

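No named call changed its direction under any alternative run. The 24 h count of 6 fell to 2 with only the arrays of 24 h (Atp2a2 AA799276_at and Atp2b4 U15408_at passed) and to 3 with only those of 1, 24 and 240 h, and it ran from 3 (without kainate replicate 3) to 5 when an array of 24 h was left out. Atp2a2 AA799276_at and Atp2b4 U15408_at passed at 24 h in all 16 settings that keep probe sets apart, Atp2b2 J03754Complete_seq_at in 15, Slc8a1 S67769_s_at in 12, Atp2a2 J04024_at in 10 and Atp2b2 rc_AA943784_s_at in 4. At 6 h the count of 0 became 1 with array weights (Atp2a2 rc_AA957510_s_at) and 1 with only the arrays of 6 and 72 h (Atp2b2 L05557cds_g_at). With array weights the counts became 2 for the mean effect (1 before), 5 for an effect at any time (3), 2 for a difference between times (1) and 6 for PBS levels (2). Leaving out 1 array gave 0 to 3, 1 to 5, 1 to 3 and 1 to 4 for these. With the replicate number as a block they became 4 for the mean effect, 3 for a difference between times and 1 for PBS levels, the PBS calls of Slc8a1 and Slc8a2 being lost (adjusted p = 0.0635 and 0.234), while the counts at each time were as before and that for an effect at any time was 4. The numbers do not pair the samples: deviations of arrays of 1 number correlated at −0.07 to 0.17, above 0.1 in 3 of 15 pairs. With the block the rise in effect from 24 to 240 h of Atp2a2 J04024_at was also lost (adjusted p = 0.0788). Shares of all tested probe sets under these settings are not given here. A change in these counts therefore cannot be read as particular to the members. The causes of these changes were not tested. Signals near the floor limit Atp2b4, Slc8a3 and the dim probe sets of Slc8a1.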
